A study of Danio rerio with 10 samples.

Results

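The single array of Bdh2 morphant zebrafish embryos was compared with the 3 arrays of control morphants, as named by the array titles. It is 1 of 10 arrays in the series. The other 6 are 3 arrays of Atg7 morphants and 3 of embryos given the Atg7 together with the Bdh2 morpholino (dual morphants). Morpholinos are synthetic antisense molecules that bind a transcript and stop its translation or its splicing. All groups were wild-type zebrafish, taken as whole embryos at 72 h after fertilization, and all had been injected with 1 to 2 nL of morpholino solution at 130 micromol/L at the 1- to 2-cell stage. The labels list that same concentration for single and dual injections and do not give the target of the control morpholino. Total RNA was hybridised to a 1-colour zebrafish Affymetrix GeneChip, where a set of short probes reads each transcript, and the values are log2 intensities.

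The Bdh2 group has no replicate. No spread between Bdh2 embryos could be measured, and values are therefore described by whether they fall beyond the lowest or highest of the 3 control values. Where an adjusted p is given, it comes from limma with Benjamini-Hochberg adjustment over 15502 probe sets. That fit pools the spread within the control, Atg7 and dual groups and assumes that the lone Bdh2 array varies as they do, so it is not a replicate check. An error written after ± is the standard error of that fit. Nothing in the labels says that the arrays of a group came from separate clutches, so the spread behind these p-values may be technical.

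Bdh2 is a cytosolic dehydrogenase. It is known in mammals for its part in making a siderophore, a small molecule that binds iron, and it is related to the enzymes of ketone body metabolism. Iron is needed in large amounts by developing red blood cells, which put it into heme, the oxygen-binding group of hemoglobin, and it is stored in ferritin. Atg7, the target of the other morpholino of the series, is an enzyme that conjugates ubiquitin-like proteins during the formation of autophagosomes.

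The label could be checked only in part. The bdh2 transcript stood at 7.17, 7.07 and 7.27 in the control arrays and at 7.47 in the Bdh2 array. It was thus above the control range rather than below it, by 0.30 ± 0.10 (adjusted p = 0.0429). The Atg7 arrays read 7.22, 7.18 and 7.22, and the dual arrays 7.38, 7.28 and 7.17. The call ended without control replicate 1 (adjusted p = 0.0791), control replicate 2 (0.11), Atg7 replicate 2 (0.0549), Atg7 replicate 3 (0.051) or dual replicate 2 (0.0615). It also ended with a replicate block (0.139) and when only the control and Bdh2 arrays were fitted (0.0586). Because a translation-blocking morpholino can leave transcript levels as they are, this level does not check the label. Of 29 markers of embryonic tissues, 23 were measured, and 16 of these were above the median of the Bdh2 array. The lowest was the liver marker fabp10a at 4.49, brighter than 21.3% of the probe sets of that array. Also below the median were all measured markers of exocrine pancreas, prss1 (5.03), ela2 (6.15) and cpa5 (5.45). The others below it were cryaa (5.79), alas2 (6.14) and mpx (6.28).

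Of the measures of RNA quality, that of actin set the Bdh2 array apart from all other arrays. That of GAPDH put it above the controls but not apart from the other groups. For the actin control probe sets, the 3 prime value minus the 5 prime value was 3.45 ± 0.067 (SD, n = 3) in control arrays and 4.30 in the Bdh2 array. It was 3.93 ± 0.11 (SD, n = 3) in Atg7 arrays and 3.86 ± 0.044 (SD, n = 3) in dual arrays. The Bdh2 array was thus the highest of all 10. The GAPDH difference averaged 1.58 ± 0.054 (SD, n = 3) over the controls. The Atg7 arrays averaged 1.67 ± 0.12 (SD, n = 3), and the dual arrays 1.70 ± 0.026 (SD, n = 3). The Bdh2 array read 1.70, above the highest control array (1.63) and within the range of the Atg7 and dual arrays. The part of RNA quality in the differences described here was not tested.

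The Bdh2 array lay outside the control range in 11874 of 15502 probe sets (76.6%), above it in 6841 (44.1%) and below it in 5033 (32.5%). The 3 control arrays were close to each other, with a median distance of 0.14 between the highest and the lowest, so lying outside their range is a low bar. At a distance of at least 2-fold from the control mean the count was 366 (2.36%), of which 159 were higher (1.03%) and 207 lower (1.34%). The smallest difference counted was 1.00 and the largest left out was 0.99986. At least 4-fold outside were 54 probe sets, 21 higher and 33 lower. The median difference over all probe sets was 0.045, and the middle 95% lay between -0.78 and 0.73.

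The 366 probe sets were chosen on the same difference that limma tests. The highest standard error of that fit was 0.31, so their passing the limma threshold was close to fixed by the choice. That threshold was passed by 4376 probe sets in all (28.2%), 2322 higher (15%) and 2054 lower (13.2%). Those that were 2-fold higher started from lower levels. The quartiles of their control mean were 4.81 and 7.58, against 6.64 and 8.94 for those that were 2-fold lower. In the Bdh2 array their medians were 7.57 and 6.11. Of the 366 probe sets, 250 had 1 gene symbol, 8 had several and 108 had none.

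**Figure D1:**
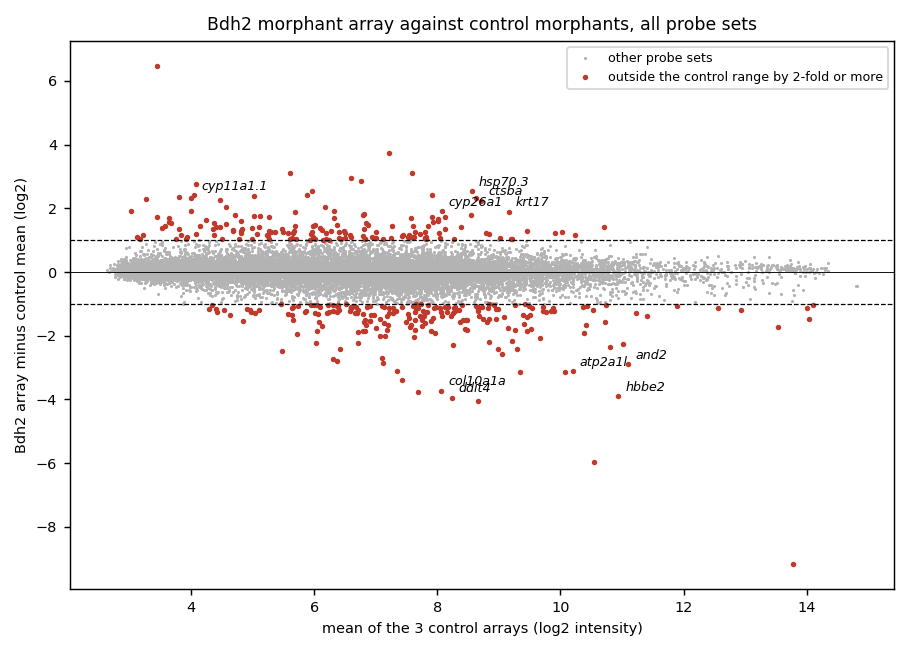
Difference between the Bdh2 array and the mean of the 3 control arrays (vertical axis, log2) against that mean (horizontal axis, log2 intensity) for 15502 probe sets. Red points are the 366 probe sets outside the control range by at least 2-fold, dashed lines mark a 2-fold difference, and 10 of the named genes are labelled. The farthest points, at -9.15 and 6.48, have no gene symbol.

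The named genes farthest below the control range were of several kinds. They included LOC100002043, ddit4, hbbe2, frg1, col10a1a, calr, lgals2b, si:ch1073-340i21.3, atp2a1l, si:ch73-237c6.1, and2, ndrg4, zgc:112271, mhc1zba and ahsa1a. The control arrays read 8.70, 8.67 and 8.61 for LOC100002043 and the Bdh2 array 4.62, a difference of -4.04 ± 0.11 (16.4-fold lower, adjusted p = 5.31e-10). For ddit4, whose product dampens mTOR signalling under stress, the controls read 8.29, 8.22 and 8.19 and the Bdh2 array 4.29. That is a difference of -3.94 ± 0.18, and the control and Bdh2 values are far apart in both genes. The collagen X gene col10a1a went from 8.05, 8.04 and 8.09 to 4.34. Its difference of -3.72 ± 0.077 was 13.2-fold.

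The Bdh2 values of LOC100002043, ddit4 and col10a1a lay below the lower quartile of that array, 4.73, and above its 10th percentile, 3.67. A further 7 falls also ended below the lower quartile. frg1 read 3.93 there, calr, which encodes an endoplasmic reticulum chaperone, 4.04, and ndrg4 4.25. The uncharacterised genes si:ch73-237c6.1 and zgc:112271 read 4.24 and 3.59. mhc1zba, an MHC class I gene, read 3.59 and ahsa1a, an activator of the HSP90 ATPase, 4.40. No detection call was available to say which of these levels are above background. The differences of these 7 genes were -3.76, -3.40, -2.86, -3.10, -2.78, -2.72 and -2.70, in that order. The galectin gene lgals2b (-3.13) and si:ch1073-340i21.3 (-3.13) remained brighter, at 6.94 and 6.22 in the Bdh2 array. hbbe2, atp2a1l and and2 remained above the median of that array, 6.36, at 7.04, 7.08 and 8.20.

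Among the rises, zgc:136864 read 5.66, 5.56 and 5.62 in control arrays and 8.71 in the Bdh2 array (3.10 ± 0.14, 8.6-fold higher, adjusted p = 3.31e-08). ppiaa, which encodes a cyclophilin, a peptidyl-prolyl isomerase, read 6.70, 6.85 and 6.72 in controls and 9.60 in the Bdh2 array (2.84 ± 0.093). mchr1b, a receptor gene for melanin-concentrating hormone, read 4.05, 4.15 and 4.06 in controls and 6.86 in the Bdh2 array (2.77 ± 0.083). In each of the 3 the Bdh2 value was far above every control array. rnf146, which encodes a ubiquitin ligase, was higher by 2.55 ± 0.18, and its control arrays were the most spread of this set (5.69, 6.01 and 6.18). The genes that follow were si:dkey-286j15.3 (2.38), si:ch211-121a2.2 (2.34), parvaa, which encodes a parvin of focal adhesions (2.32), farp2 (2.30) and tnpo2a, which encodes a nuclear import receptor (2.04). The rises also held hsp70.3, cyp11a1.1, ctsba, cyp26a1, fosab and krt17, which are described with their groups.

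Different probe sets of a gene did not always move together. The other probe set was at -0.12 for ppiaa, -0.024 for mchr1b, -0.092 for calr and -0.082 for zgc:112271. The pair of further probe sets of rnf146 differed by 2.42 and -0.36 and that of farp2 by 0.20 and 1.02, with ndrg4 at -1.15 and zgc:136864 at 0.49. For ppiaa the other probe set was far brighter, at 13.9 in the Bdh2 array against 9.60. A value given for 1 probe set of these genes is therefore not a value for all of the gene's transcript.

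Probe sets with no gene symbol held the most distant values, and were chosen after their values were seen. One such probe set read 13.74, 13.82 and 13.79 in control arrays and 4.63 in the Bdh2 array, a difference of -9.15 ± 0.23. Another read 3.41, 3.27 and 3.64 in control arrays and 9.92 in the Bdh2 array, a difference of 6.48 ± 0.13. The first thus went from near the top of the scale to just below the lower quartile of the Bdh2 array, 4.73. The second went from low to high levels. The dual arrays were far from the controls in the same directions (4.49, 4.93 and 5.42 for the first and 11.06, 11.00 and 11.09 for the second). The Atg7 arrays were near the controls (13.87, 13.83 and 13.82, and 3.94, 3.80 and 3.70). A probe set at -5.95 shares the number in its name with the probe set of ctsba, which was at 2.24. The next highest difference was 3.74.

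**Figure D2:**
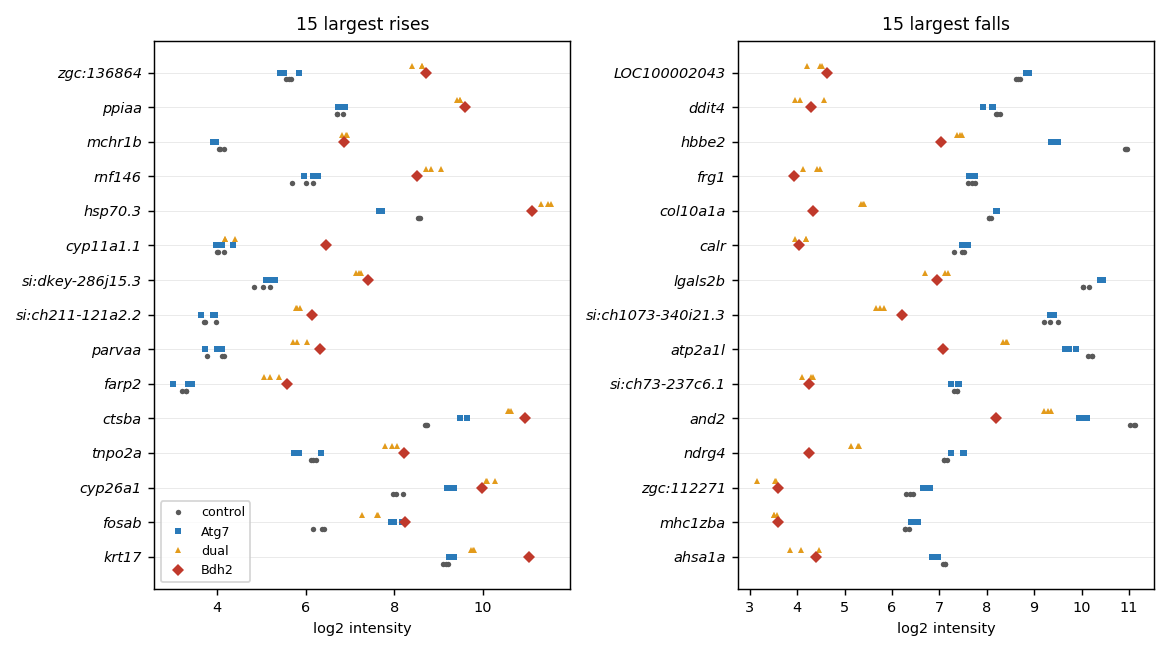
Log2 intensity (horizontal axis) of the 15 named genes farthest above and the 15 farthest below the control range, with 1 point per array: 3 control (grey), 3 Atg7 (blue), 3 dual (orange) and 1 Bdh2 (red diamond). The Bdh2 array lies close to the dual arrays for genes such as ppiaa and ddit4, and apart from all other arrays for cyp11a1.1, krt17 and and2.

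Red blood cell genes were lower in the Bdh2 array. Of 21 measured genes of an erythroid and globin list, 18 lay below the control range and 3 above it, where 32.5% and 44.1% of all probe sets did. By at least 0.5, 10 were lower and 1 higher, where 6.53% and 6.12% of all probe sets were. By limma 13 fell and 1 rose, against 13.2% and 15% of all probe sets. The median difference of the list was -0.47, against 0.045 over all probe sets. In whole embryos, fewer red blood cells and less RNA per red blood cell cannot be told apart.

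The embryonic beta globin gene hbbe2 read 10.96, 10.94 and 10.91 in control arrays and 7.04 in the Bdh2 array. The difference of -3.90 ± 0.085 (14.9-fold lower, adjusted p = 4.52e-11) was the largest of the list. The Atg7 arrays read 9.43, 9.36 and 9.50 and the dual arrays 7.47, 7.43 and 7.38, so the Bdh2 array was the lowest of all 10. A second embryonic beta globin gene, hbbe3, was lower by less, from 12.22, 12.14 and 12.21 to 11.24 (-0.95 ± 0.087). Its Atg7 arrays (10.78, 10.83 and 10.70) and dual arrays (10.70, 10.75 and 10.63) were below the Bdh2 array. The embryonic alpha globin gene hbae3, among the brightest on the arrays, went from 14.02, 14.08 and 14.00 to 12.55 (-1.48 ± 0.08), and its other probe set was at -1.72.

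slc4a1a encodes band 3, the anion exchanger of the red cell membrane. It read 9.48, 9.45 and 9.46 in control arrays and 7.63 in the Bdh2 array (-1.84 ± 0.086), and 7.89, 7.77 and 7.86 in Atg7 arrays and 7.65, 7.60 and 7.74 in dual arrays. All 7 arrays with a targeting morpholino thus lay below the controls and near each other. The red cell carbonic anhydrase gene cahz was at -1.56 ± 0.12, the membrane skeleton genes epb41b and sptb at -0.81 and -0.41, and the water channel gene aqp1a.1 at -0.60. The list also holds the tropomodulin gene tmod4 at -0.47, which is not particular to red blood cells. The beta globin gene hbba2 was at -0.57, the peroxiredoxin gene prdx2 at -0.55, nt5c3a at -0.35 and klf1, which encodes an erythroid transcription factor, at -0.51. All of these fell by limma, though the call of sptb ended without control replicate 3 (adjusted p = 0.0593) and that of nt5c3a with a replicate block (adjusted p = 0.064). The transcription factor genes gata1a (-0.30), tal1 (-0.24) and lmo2 (-0.34) and the alpha globin gene hbaa1 (-0.36) were below the control range but did not pass the threshold. Of these, lmo2 passed without control replicate 3 (-0.49, adjusted p = 0.0335), gata1a with control and Bdh2 arrays only (adjusted p = 0.0442) and hbaa1 with quantile normalization (-0.43, adjusted p = 0.0447). The rise was that of blvrb, a biliverdin reductase gene, from 8.21, 8.12 and 8.04 to 9.03 (0.90 ± 0.12).

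Of 11 heme synthesis genes, 2 fell by limma (18.2%) and 0 rose, against 13.2% and 15% of all probe sets, and the median was -0.11. Under the alternatives 1 to 3 fell and at most 1 rose. alas2, which encodes the first enzyme of heme synthesis in red blood cells, read 7.57, 7.77 and 7.55 in control arrays and 6.14 in the Bdh2 array, a difference of -1.49 ± 0.11 (adjusted p = 1.21e-06). The Atg7 arrays read 6.18, 6.18 and 6.20 and the dual arrays 5.84, 5.63 and 5.73, so the Bdh2 array was level with the Atg7 arrays and above the dual arrays. slc25a38b, which encodes a mitochondrial carrier known for bringing glycine to heme synthesis, was at -0.43 ± 0.11, a call that ended with a replicate block (adjusted p = 0.0545). The other 9 genes were between -0.24 and 0.37.

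Of 16 measured iron handling genes 5 fell (31.2%) and 2 rose (12.5%) by limma, against 13.2% and 15% of all probe sets, and the median was -0.023. cp, which encodes ceruloplasmin, a copper protein of plasma that oxidises iron, read 9.24, 9.26 and 9.37 in control arrays and 6.88 in the Bdh2 array (-2.41 ± 0.088, 5.31-fold lower). fthl28, a gene of the ferritin heavy chain family, read 6.82, 6.78 and 6.80 in control arrays and 4.94 in the Bdh2 array (-1.86 ± 0.084). The controls of both genes lay within a narrow range, and the Bdh2 array stood far below it and below the dual arrays (7.59, 7.47 and 7.50 for cp and 6.32, 6.42 and 6.29 for fthl28).

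The related ferritin gene fthl30 was at -0.79 ± 0.11, on probes shared with other transcripts. ncoa4, the receptor that brings ferritin to autophagosomes, was at -0.42 ± 0.099, and slc40a1, which encodes the iron exporter ferroportin, at -0.40 ± 0.09. The ferritin heavy chain gene fth1a read 13.14, 13.12 and 13.08 in control arrays and 13.33 in the Bdh2 array. This difference of 0.22 ± 0.079 did not pass the threshold (adjusted p = 0.0553), and it did with quantile normalization, without dim probe sets and with a trended prior (adjusted p = 0.0339, 0.0186 and 0.00124). The higher members were glrx5, a glutaredoxin gene of iron-sulphur cluster assembly, at 0.31 ± 0.093, and the transferrin gene tfa at 0.27 ± 0.091. The call of glrx5 ended without control replicate 3, and that of tfa whichever control array was left out. The call of tfa also ended with a replicate block and when only the control and Bdh2 arrays were fitted. It ended as well without Atg7 replicate 1, Atg7 replicate 2 or dual replicate 1. With a replicate block 0 members rose.

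**Figure D3:**
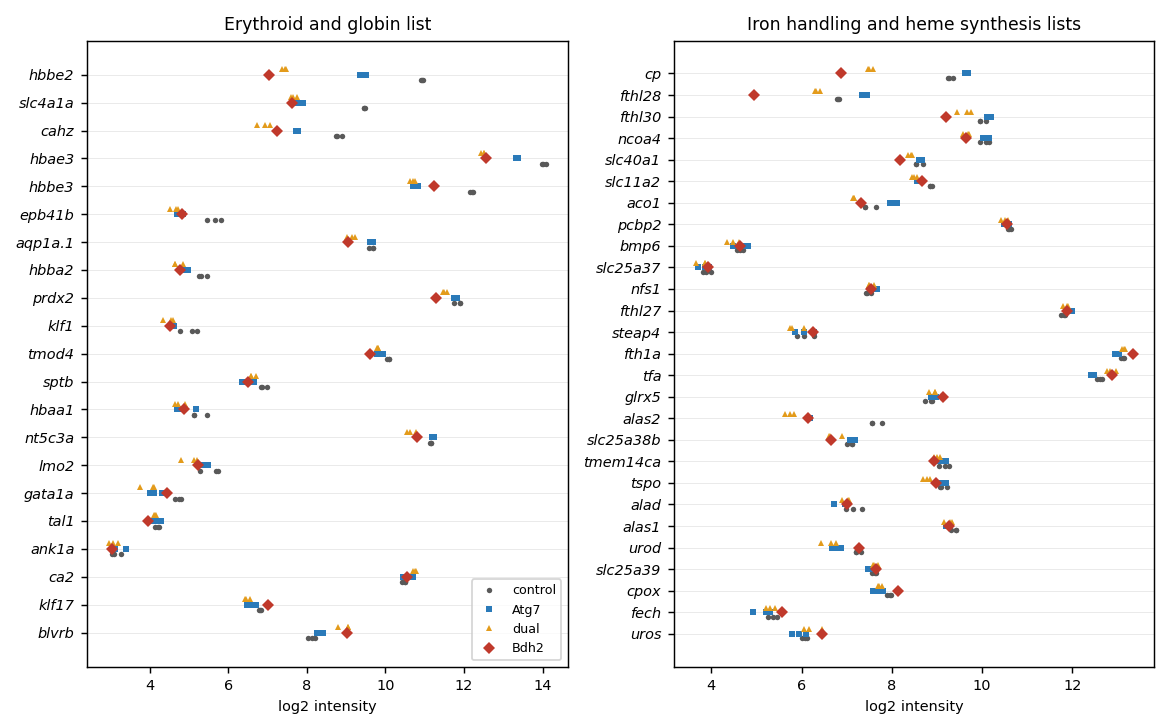
Log2 intensity (horizontal axis) per array of the 21 erythroid and globin genes (left) and of the 16 iron handling and 11 heme synthesis genes (right), with control arrays in grey, Atg7 in blue, dual in orange and the Bdh2 array as a red diamond. Of the 21 genes on the left, 18 have the Bdh2 array below all 3 control arrays, where 32.5% of all probe sets do. On the right cp, fthl28 and alas2 stand farthest below.

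The ketone body list held 8 measured genes, bdh2 among them. By limma 4 fell (50%) and 2 rose (25%), against 13.2% and 15% of all probe sets, and the median was -0.23. Without dim probe sets 6 members were left, and their median was -0.021. aacs, which encodes the cytosolic enzyme that activates acetoacetate, read 4.90, 4.57 and 4.66 in control arrays and 3.80 in the Bdh2 array (-0.91 ± 0.13). Its Bdh2 value lay near the 10th percentile of that array, 3.67. hmgcs1, the cytosolic HMG-CoA synthase gene of cholesterol synthesis, was at -0.58 ± 0.096. The carrier genes slc16a1b and slc16a3b, of the monocarboxylate transporter family, were at -0.42 and -0.33. oxct1a, which encodes the mitochondrial enzyme that uses acetoacetate, was higher at 0.34 ± 0.087. The call of oxct1a ended with a replicate block (adjusted p = 0.0515), with which 0 members of the list rose, and that of slc16a1b with the block (0.0599) and without control replicates 2 or 3 (0.0744 and 0.07).

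Stress genes moved in both directions. Over all probe sets, 6.12% were higher and 6.53% lower by at least 0.5. In the heat shock and chaperone list, 9 of 33 genes rose (27.3%) and 8 fell (24.2%) by limma, against 15% and 13.2% of all probe sets, and 5 were higher and 5 lower by at least 0.5. The inducible chaperone gene hsp70.3 read 8.55, 8.53 and 8.59 in control arrays and 11.10 in the Bdh2 array (2.54 ± 0.094, 5.82-fold higher, adjusted p = 4.41e-09). Its Atg7 arrays were lower than the controls (7.73, 7.65 and 7.73), and its dual arrays higher than the Bdh2 array (11.32, 11.55 and 11.46). The HSP40 co-chaperone genes dnaja1 and dnajb1b were at 1.30 and 0.79, hspa8b of the HSP70 family at 0.89 and the small heat shock gene hspb1 at 0.82. Lower, beside ahsa1a, were the heat shock factor genes hsf1 (-0.90) and hsf2 (-0.67), the co-chaperone gene bag2 (-0.81) and the small heat shock gene hspb6 (-0.80). The other probe set of hsf1, at the dim level of 4.32 in the Bdh2 array, was at -0.0089.

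In the list of ATF4 and amino acid stress genes 13 of 35 fell (37.1%) and 4 rose (11.4%), with a median of -0.14. ddit4 was the farthest member. atf5a, a transcription factor gene, was at -1.12 ± 0.13 and chac1, a glutathione-degrading enzyme gene, at -0.94 ± 0.079. ppp1r15a, which encodes a phosphatase subunit that reverses the block of translation under stress, was higher, from 8.57, 8.52 and 8.49 to 9.42 (0.89 ± 0.087). Its 3 other probe sets were at 0.82, 0.85 and 0.80. The p53 response list, where 5 of 29 genes rose (17.2%) and 3 fell (10.3%), was near the shares of all probe sets (15% and 13.2%). In it rrm2b, a ribonucleotide reductase gene, was at 0.62, gadd45ba at 0.57 and the transcription factor gene foxo3b at -0.51. The other probe set of gadd45ba was at 0.31 and that of foxo3b at 0.24, against the direction of the first.

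Among antioxidant genes, 13 of 35 fell (37.1%) and 3 rose (8.57%) by limma, against 13.2% and 15% of all probe sets. Of the list, 18 lay below the control range and 10 above it, where 32.5% and 44.1% of all probe sets did. By at least 0.5, 9 were lower and 1 higher, where 6.53% and 6.12% of all probe sets were. The median was -0.12. The catalase gene cat read 7.47, 7.78 and 7.64 in control arrays and 6.38 in the Bdh2 array (-1.25 ± 0.12). The superoxide dismutase genes sod2 and sod1 were at -0.94 ± 0.083 and -0.79 ± 0.09, and the glutathione transferase gene gstt1a at -1.13 ± 0.091. The regulator gene nfe2l2a, which encodes NRF2, was above the control range, from 6.79, 7.04 and 6.98 to 7.61 (0.67 ± 0.10). On the probe sets given, these 4 enzyme genes and the regulator gene thus lay on opposite sides of the control range. The other probe set of nfe2l2a was at 0.052, at the dim level of 4.09 in the Bdh2 array.

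Proliferation genes were higher together, each by a small amount. Of 99 genes of cell division and DNA replication, 85 lay above the control range and 5 below it, where 44.1% and 32.5% of all probe sets did. By limma 63 rose (63.6%) and 2 fell (2.02%), against 15% and 13.2% of all probe sets, and 18 were higher by at least 0.5 and 0 lower. At that distance of 0.5, 6.12% of all probe sets were higher and 6.53% lower. The median of the list was 0.31, and no member reached 2-fold. The DNA ligase gene lig1 read 8.68, 8.60 and 8.70 in control arrays and 9.56 in the Bdh2 array (0.90 ± 0.086). gmnn, which encodes geminin, an inhibitor of repeated replication, was at 0.89 ± 0.11, the E2F genes e2f8 and e2f7 at 0.86 and 0.83, the replication licensing gene cdc6 at 0.78 and slbp, which encodes a protein that binds histone mRNA, at 0.72. In the other direction the cyclin E gene ccne1 was at -0.46 ± 0.12.

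The proteasome list had 13 of 54 genes higher (24.1%) and 3 lower (5.56%) by limma, against 15% and 13.2% of all probe sets, with none of them 0.5 outside the control range. The hox and tailbud list had 14 of 42 higher (33.3%) and 3 lower (7.14%), with a median of 0.19. In it hoxb1a, a hindbrain patterning gene, was the farthest, from 4.96, 4.93 and 4.54 to 6.40 (1.59 ± 0.15). The list of 78 genes with ribosomal protein symbols, a kinase gene among them, had a median of 0.092. In it 0 members were 0.5 outside the control range. The respiratory chain list had 41 of 67 genes below the control range and 13 above it, where 32.5% and 44.1% of all probe sets were. Its median was -0.10, and 1 member was lower and 0 higher by at least 0.5, where 6.53% and 6.12% of all probe sets were. The limma counts of this list changed with the processing on both sides. Its farthest member, cox4i1l of cytochrome c oxidase, was at -1.13 ± 0.12.

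Genes of glycolysis and of muscle were lower. In the glycolysis list 19 of 39 genes fell (48.7%) and 2 rose (5.13%) by limma, against 13.2% and 15% of all probe sets. By at least 0.5, 11 were lower (28.2%) and 1 higher (2.56%), against 6.53% and 6.12%, and the median was -0.30. pfkma, a muscle phosphofructokinase gene, read 7.15, 7.16 and 7.16 in control arrays and 5.15 in the Bdh2 array (-2.01 ± 0.092, 4.02-fold lower). The glycogen phosphorylase gene pygl was at -1.50 ± 0.11, the pyruvate kinase gene pklr at -1.40 ± 0.081, the glucose phosphate isomerase gene gpia at -1.08 ± 0.11 and the muscle enolase gene eno3 at -1.07 ± 0.093. The Bdh2 value of pygl (6.25) was below all 9 other arrays, whose dual values (7.84, 7.89 and 7.84) overlapped the control values (7.86, 7.65 and 7.75). pdk4, a kinase gene whose product keeps pyruvate out of the citric acid cycle, was higher at 0.66 ± 0.12. The list of 42 fatty acid oxidation and lipid genes had a median of -0.044, near that of all probe sets (0.045). By at least 0.5, 5 of them were lower (11.9%) and 0 higher, against 6.53% and 6.12%. acadvl, an acyl-CoA dehydrogenase gene, was at -1.16 ± 0.092, and the member farthest the other way at 0.44.

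Of 64 skeletal and cardiac muscle genes 34 fell (53.1%) and 8 rose (12.5%), against 13.2% and 15% of all probe sets, 24 were lower and 5 higher by at least 0.5, and the median was -0.28. By at least 0.5, 6.53% of all probe sets were lower and 6.12% higher. atp2a1l, a calcium pump gene of the sarcoplasmic reticulum, read 10.23, 10.23 and 10.14 in control arrays and 7.08 in the Bdh2 array (-3.12 ± 0.098, 8.7-fold lower). The dual arrays read 8.35, 8.41 and 8.43, above the Bdh2 array and below the controls. The parvalbumin genes pvalb5 and pvalb3, which encode calcium-binding proteins of fast muscle, were at -1.78 and -1.56, and ldb3a, a gene of the sarcomeric Z-disc, at -1.64. Higher were txlnba (1.71), the titin gene ttn.2 (1.66), the troponin I gene tnni2b.1 (1.27) and the troponin T gene tnnt2c (1.21). Other probe sets of ttn.2 were at -0.14, 0.049 and 1.07, so the titin rise was not read by all of them. eno3 is a member of both lists.

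Neuronal genes were lower in the Bdh2 array. Of 66 genes 31 fell (47%) and 3 rose (4.55%) by limma, against 13.2% and 15% of all probe sets. By at least 0.5, 17 were lower (25.8%) and 1 higher (1.52%), against 6.53% and 6.12%, and the median was -0.23. gng13b, a G protein subunit gene, read 7.55, 7.51 and 7.44 in control arrays and 5.94 in the Bdh2 array (-1.56 ± 0.10). The synaptic gene snap25b was at -1.23 ± 0.10, the microtubule regulator gene stmn1b at -1.19 ± 0.086, the transcription factor gene lhx1a at -1.12 ± 0.10 and the kinesin gene kif5aa at -0.92 ± 0.089. The member above the control range by at least 0.5 was elavl3, which encodes an RNA-binding protein of young neurons (0.56 ± 0.086). In dual minus Atg7, 16 members were higher (24.2%) and 13 lower (19.7%), against 15.8% and 17.2% of all probe sets, with a median of 0.027. The difference between the contrasts passed in 20 of the 66 (30.3%), against 8.13% of all probe sets.

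In the retina and photoreceptor list 10 of 50 genes fell (20%) and 3 rose (6%), against 13.2% and 15% of all probe sets, and the median was 0.060. The photoreceptor transcription factor gene crx read 6.42, 6.36 and 6.48 in control arrays and 4.0 in the Bdh2 array (-2.42 ± 0.11, 5.34-fold lower). The Atg7 arrays read 6.89, 6.67 and 6.61 and the dual arrays 6.35, 6.48 and 6.39, so the Bdh2 array stood alone below all 9 others. The same held for vsx1, a bipolar cell transcription factor gene, which read 7.25, 7.11 and 7.03 in control arrays and 5.54 in the Bdh2 array (-1.59 ± 0.13), and 7.57, 7.61 and 7.79 in dual arrays. atoh7, which encodes a factor needed for retinal ganglion cells, was at -1.1 ± 0.087 and nr2e3, a photoreceptor nuclear receptor gene, at -0.79 ± 0.099. The opsin family gene rgrb was at -1.08 ± 0.083, with dual arrays that were lower as well (8.69, 8.62 and 8.64).

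Fin fold and skeletal matrix genes were lower by large amounts in a few members. Of 49 genes 18 fell (36.7%) and 3 rose (6.12%), against 13.2% and 15% of all probe sets, 12 were lower and 3 higher by at least 0.5, and the median was -0.12. Among all probe sets, 6.53% were lower and 6.12% higher by at least 0.5. The actinodin genes, which encode structural proteins of the fin fold, were lower together. and2 read 11.14, 11.12 and 11.03 in control arrays and 8.20 in the Bdh2 array (-2.89 ± 0.095, 7.44-fold lower). and3 and and1 were at -1.67 ± 0.089 and -1.28 ± 0.093, and the probes of and3 are shared with other transcripts. The Atg7 and dual arrays of and2 were also below the controls, at 9.95, 10.08 and 10.12 and 9.28, 9.22 and 9.36, but above the Bdh2 array. col14a1a, a collagen gene, was higher, from 6.18, 6.09 and 6.33 to 7.44 (1.24 ± 0.12).

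The skin and keratin list had 14 of 54 genes higher and 14 lower by limma (25.9% each), against 15% and 13.2% of all probe sets. The keratin gene krt17 read 9.22, 9.16 and 9.10 in control arrays and 11.05 in the Bdh2 array (1.89 ± 0.085, 3.7-fold higher), and the keratin genes krt15 and krt94 were at -1.85 and -1.44. Members of 1 family were thus far from the controls on either side. zgc:111983, which has no descriptive name, was at 1.36, the calpain gene capn9 at 1.04 and the transglutaminase gene tgm1l4 at 1.02.

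**Figure D4:**
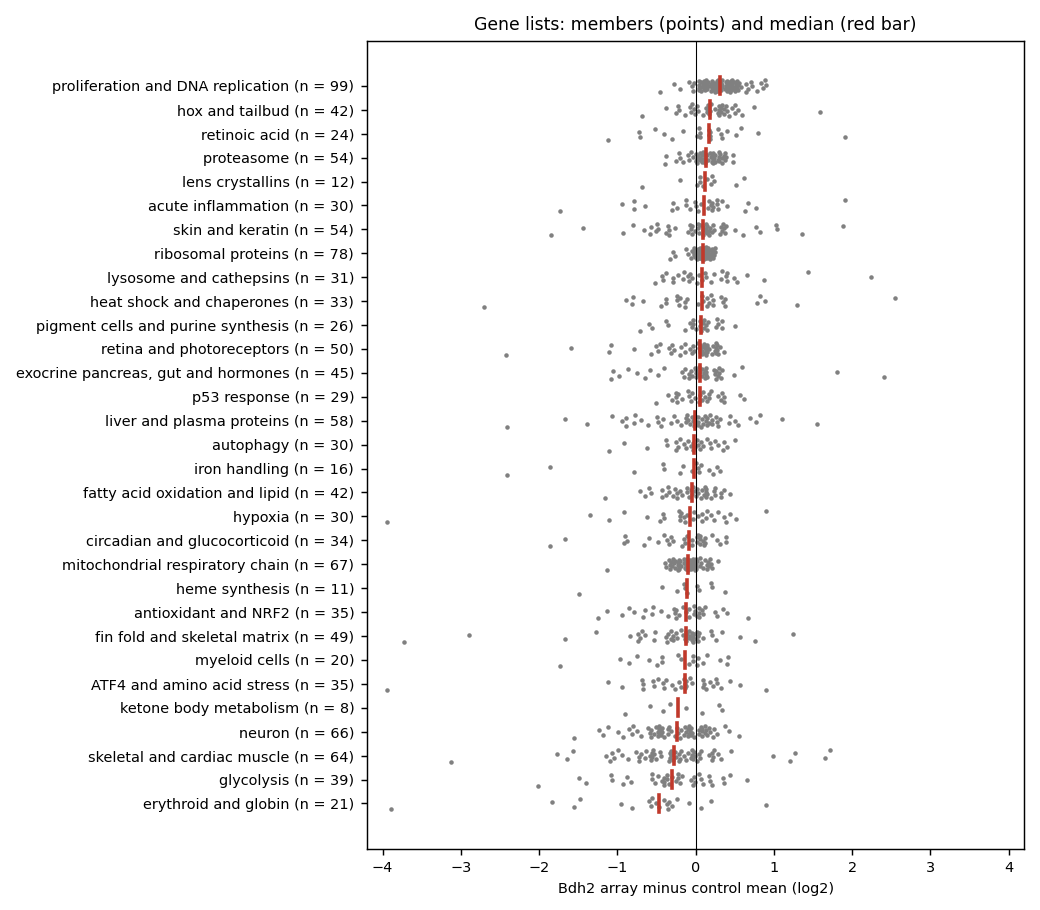
Difference between the Bdh2 array and the control mean (horizontal axis, log2) for each member (grey points) of 31 gene lists, with the median of each list as a red bar and the number of measured genes in brackets. The medians run from -0.47 in the erythroid and globin list to 0.31 in the proliferation list, against 0.045 over all probe sets.

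Genes of steroid hormones and their action stood out singly. cyp11a1.1, whose product cuts the side chain of cholesterol at the start of steroid synthesis, read 4.14, 3.99 and 4.01 in control arrays and 6.45 in the Bdh2 array (2.40 ± 0.14, 5.28-fold higher). The Atg7 arrays (4.10, 4.35 and 3.97) and the dual arrays (4.17, 4.39 and 4.18) were near the controls, so the Bdh2 array alone was high. cyp17a1, a later enzyme gene of the same pathway, was at 1.80 ± 0.13, with dual arrays that were as high (6.57, 6.72 and 6.76). Its probes are shared with other transcripts, and its other probe set was at -0.17. star, which encodes the carrier that brings cholesterol to the first enzyme, was lower at -0.87 ± 0.11. The pancreatic hormone genes sst2, gcga and ins, for somatostatin, glucagon and insulin, were at -1.08, -1.06 and -0.97. In the list of exocrine pancreas, gut and hormone genes that holds all of these, 9 of 45 fell (20%) and 6 rose (13.3%), against 13.2% and 15% of all probe sets.

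Of 34 circadian and glucocorticoid genes 8 fell (23.5%) and 2 rose (5.88%), against 13.2% and 15% of all probe sets. The median was -0.081, and 7 were lower and 0 higher by at least 0.5, where 6.53% and 6.12% of all probe sets were. hsd11b2, which encodes the enzyme that inactivates cortisol, read 6.80, 6.82 and 6.85 in control arrays and 4.97 in the Bdh2 array (-1.86 ± 0.078). The glucocorticoid-induced genes fkbp5, tsc22d3 and klf9 were at -1.67 ± 0.11, -0.91 ± 0.10 and -0.90 ± 0.10, and the clock gene per2 at -0.88 ± 0.099. The other probe set of per2 was at -0.032, at the level of 5.20 in the Bdh2 array. All of these stood below the control range.

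In the retinoic acid list 6 of 24 genes rose (25%) and 5 fell (20.8%), against 15% and 13.2% of all probe sets. cyp26a1, which encodes an enzyme that degrades retinoic acid, read 8.20, 8.05 and 7.96 in control arrays and 9.98 in the Bdh2 array (1.91 ± 0.11). The retinal reductase gene dhrs3a was at 0.80 ± 0.13. The retinoic acid synthesis gene aldh1a2 was at -0.71 ± 0.11 and the retinol-binding protein gene rbp2a at -1.13 ± 0.095. An aldehyde dehydrogenase gene of the list that is not among the named genes was higher, at 0.58 ± 0.098. By at least 0.5, 4 members were higher and 4 lower (16.7% each), where 6.12% and 6.53% of all probe sets were. The genes named here thus do not stand for all synthesis or breakdown genes. In the Atg7 arrays cyp26a1 was between the controls and the Bdh2 array (9.29, 9.35 and 9.18).

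Liver and plasma protein genes went both ways, with 16 of 58 lower (27.6%) and 10 higher (17.2%) by limma, against 13.2% and 15% of all probe sets, and a median of -0.012. Besides cp, the selenoprotein P gene selenop2 was at -1.66 ± 0.089, itih3a.1 at -1.39 ± 0.10 and the hemopexin gene hpxa, whose product binds free heme, at -1.07 ± 0.12. Higher were uox, a urate oxidase gene, at 1.55 ± 0.094, and the antithrombin gene serpinc1 at 1.1 ± 0.12. The dual arrays of uox were below its controls (3.96, 4.06 and 4.12 against 4.38, 4.37 and 4.39), and its Bdh2 value was 5.93.

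Among 30 genes of acute inflammation 7 rose (23.3%) and 6 fell (20%), against 15% and 13.2% of all probe sets. The AP-1 subunit gene fosab read 6.37, 6.42 and 6.18 in control arrays and 8.23 in the Bdh2 array (1.91 ± 0.15), and its other probe sets were at 1.76, 0.46 and 0.93. The Atg7 arrays of fosab (7.99, 7.93 and 8.16) and its dual arrays (7.27, 7.62 and 7.63) were also above the controls. junba, another AP-1 subunit gene, was at 0.77 ± 0.094, the immediate early gene ier2a at 0.66 and nfkb2, an NF-kappa-B subunit gene, at 0.63. The matrix metalloproteinase genes mmp13a, mmp14a and mmp9 were at -1.73, -0.94 and -0.64. For mmp9 the Atg7 arrays were far above all others (8.46, 8.57 and 8.51), the controls read 6.75, 6.83 and 6.69 and the Bdh2 array 6.11.

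Of 20 myeloid genes 8 fell (40%) and 2 rose (10%), against 13.2% and 15% of all probe sets, with a median of -0.13. The lysozyme gene lyz read 10.21, 10.14 and 10.12 in control arrays and 9.19 in the Bdh2 array (-0.97 ± 0.082). The myeloperoxidase gene mpx was at -0.85 ± 0.10, but of its other probe sets 1 rose by limma, by 0.51 (adjusted p = 0.0158), and the others were at -0.19 and 0.18. The probe set that rose was dim, at 4.33 in the Bdh2 array. The dual arrays of lyz (9.80, 9.70 and 9.73) and of mpx (6.89, 7.02 and 7.07) were above the Bdh2 array.

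Of 31 lysosome and cathepsin genes 10 rose (32.3%) and 5 fell (16.1%) by limma, against 15% and 13.2% of all probe sets, and 5 were higher and 1 lower by at least 0.5. That distance of 0.5 was reached by 6.12% of all probe sets above the control range and by 6.53% below it. ctsba encodes cathepsin B, a lysosomal protease. It read 8.75, 8.71 and 8.69 in control arrays and 10.95 in the Bdh2 array (2.24 ± 0.087, 4.72-fold higher). An unnamed probe set numbered like that of ctsba went the other way by more. It read 10.51, 10.50 and 10.62 in control arrays and 4.59 in the Bdh2 array (-5.95 ± 0.11). Whether both read the same gene was not tested, so the rise holds for the named probe set only. Other cathepsin genes were higher as well, ctsc at 1.43 ± 0.18, ctsll at 0.87 ± 0.10, ctsa at 0.65 ± 0.088 and ctss2.1 at 0.53 ± 0.084, and ctsz was lower at -0.51 ± 0.085. The dual arrays of ctsc (7.27, 7.55 and 7.68) overlapped its control arrays (7.91, 8.05 and 7.56), and those of ctss2.1 (9.09, 9.08 and 9.09) were below its controls (10.08, 9.98 and 10.08).

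The autophagy list was near the shares of all probe sets (13.2% lower and 15% higher), with 5 of 30 lower (16.7%) and 3 higher (10%) by limma and a median of -0.019. The mitophagy receptor genes bnip3lb and bnip3 were at -1.11 ± 0.095 and -0.91 ± 0.13, and the other probe set of bnip3lb at 0.15. nbr1a, an autophagy receptor gene, was at -0.62 ± 0.085. Of 30 hypoxia genes 8 fell (26.7%) and 5 rose (16.7%), with ndrg1b at -1.35 ± 0.15 and the prolyl hydroxylase gene egln3 at 0.90 ± 0.087. The hypoxia list also holds ddit4, bnip3 and bnip3lb.

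The series holds another contrast that differs by the Bdh2 morpholino, dual minus Atg7, with 3 arrays a group. It shares no array with Bdh2 minus control. The labels do not say whether the dual and Bdh2 arrays share a clutch or a batch. Such a shared origin cannot be told apart from the Bdh2 morpholino in this design. Over all probe sets the Bdh2 array had r of 0.992 to 0.993 with the dual arrays. With the control arrays r was 0.983, and with the Atg7 arrays 0.980 to 0.982. By limma 5115 of 15502 probe sets passed in it (33%), 2448 higher (15.8%) and 2667 lower (17.2%). Of the 159 probe sets that were 2-fold higher in the Bdh2 array, 139 also rose in dual minus Atg7, 4 fell and 16 did not pass. Of the 207 that were 2-fold lower, 187 also fell, 5 rose and 15 did not pass. The median in dual minus Atg7 was 0.83 for the higher probe sets, beside 1.28 in the Bdh2 array, and -0.90 for the lower ones, beside -1.30. Because the probe sets were chosen for their distance in the Bdh2 array alone, a smaller median in the other contrast can arise from that choice. How much of the drop comes from the choice was not tested. The 2-fold mark was passed in the same direction by 65 and 90 of them. Across 15502 probe sets Pearson's r between both differences was 0.736, and 0.615 without the 366, as a description of points that share probes and sequence.

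At nearly equal distance in both contrasts were the named probe sets of ddit4 (-3.94 in Bdh2 minus control and -3.86 in dual minus Atg7), calr (-3.40 and -3.44), si:ch73-237c6.1 (-3.10 and -3.11), ppiaa (2.84 and 2.64) and mchr1b (2.77 and 2.94). In Bdh2 minus control the other probe sets of calr, ppiaa and mchr1b were at -0.092, -0.12 and -0.024. The values of these genes thus hold for the named probe set only. The proliferation list had 59 of 99 members higher and 3 lower in dual minus Atg7 (median 0.21), beside 63 and 2 in the Bdh2 array. In the erythroid list 8 of 21 fell and 1 rose there (median -0.14), beside 13 and 1 (median -0.47). Other lists were less alike. Of 30 acute inflammation genes, 19 fell and 2 rose in dual minus Atg7 (median -0.53), beside 6 and 7 (median 0.11). For the p53 response list these counts were 14 and 5, beside 3 and 5. For the skin and keratin list they were 26 and 7, beside 14 and 14.

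The difference between both contrasts was itself tested in the limma fit, again with the lone Bdh2 array in it. It passed in 1261 probe sets (8.13%), 670 in which the Bdh2 array was higher than the other 3 groups would add up to (4.32%) and 591 in which it was lower (3.81%). With a replicate block the count was 708. Among the 366 it passed in 190, a count that the choice of these probe sets raises, since the Bdh2 value that chose them also enters the test. For cyp11a1.1 the difference between contrasts was 2.29 ± 0.17 (adjusted p = 1.06e-05), for fosab 2.43 ± 0.18, for krt17 1.42 ± 0.10, for crx -2.10 ± 0.14, for and2 -2.13 ± 0.12, for hbbe2 -1.89 ± 0.10 and for slc4a1a -1.66 ± 0.11. In the erythroid list the test passed in 8 of 21 members and in the proliferation list in 2 of 99. Across the 31 lists the share ran from 0 of 54 (proteasome) to 18 of 30 (acute inflammation, 60%), against 8.13% of all probe sets. It was 8 of 20 in the myeloid list, 10 of 29 in the p53 response list and 17 of 54 in the skin and keratin list.

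**Figure D5:**
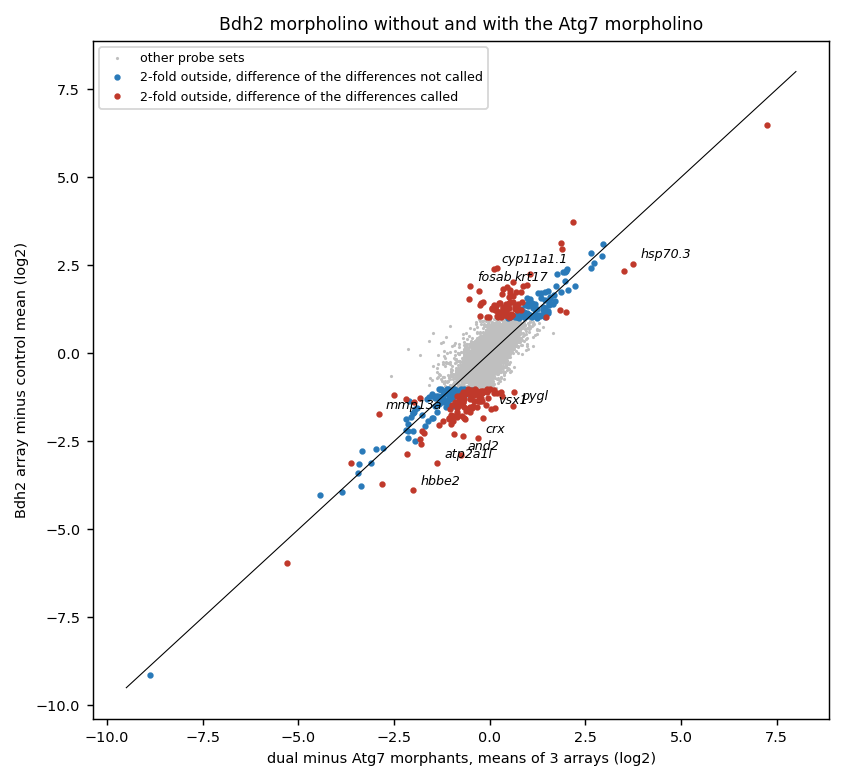
Difference between the Bdh2 array and the control mean (vertical axis, log2) against dual minus Atg7 (horizontal axis, log2, means of 3 arrays) for 15502 probe sets. Coloured points are the 366 probe sets 2-fold outside the control range, red where the difference between both contrasts passed the limma threshold (190) and blue where it did not, and the line marks equal differences.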

How the data were processed

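Whole-embryo RNA of 10 samples in 4 groups was measured on 1-colour arrays. The deposited values are log2 intensities with 1 value per probe set, made by the authors with Affymetrix Expression Console, per the submitters' processing notes. How probes were summarised, background-corrected and normalized is not given in the sources used here, and the log2 scale was read from the range of the values (2.48 to 14.9). Array medians lay between 6.33 and 6.38, so a change of all transcripts in 1 direction would be hidden, and differences that end near background are compressed. For arrays, their number limits the precision.

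Of 15617 probe sets 115 AFFX controls were left out. The platform annotation gave 1 symbol for 10795 probe sets, several for 135 and none for 4572, and 10711 were matched by Entrez ID to current symbols in a RefSeq table (GRCz12tu assembly). No coordinate or sequence was used. Probe sets of 9 genes named in the text carry a suffix for probes shared with other transcripts (and3, cyp17a1, fosab, fthl30, hsf1, hsp70.3, mmp13a, mpx and zgc:111983).

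A probe set was counted as outside where the Bdh2 value lay outside all 3 control arrays, at a distance from the control mean of 0.5 or 1 log2 where stated. limma 3.58.1 in R 4.3.3 (lmFit and eBayes, 4 groups, 6 residual degrees of freedom, 10 arrays, two-sided, Benjamini-Hochberg, threshold 0.05) gave the p-values and was tested on simulated data. The simulation gave the Bdh2 array the same spread as the others. It therefore does not check the assumption that the lone array varies as they do. Lists take 1 probe set per gene, the brightest over all arrays, and were described by counts and medians without a set test.

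The named genes are bdh2, the 15 largest rises and 15 largest falls, and members of 31 gene lists, mostly the 3 farthest in the main direction and 1 against it. Others from the lists were chosen after their values were seen. The Bdh2 array, its members, lists and tests were chosen with earlier results of these data known. Alternatives were quantile normalization, centring on medians, a filter on dim probe sets, a stricter fold, a trended prior, a replicate block, the fit of control and Bdh2 arrays alone and leaving out each array.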

Additional observations from a re-analysis of the deposited data

Results flagged for a closer look

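Each gene here had a Bdh2 minus control difference that differed from its dual minus Atg7 difference by limma with Benjamini-Hochberg adjustment over all probe sets. Values are the first difference minus the second on the log2 scale, so a negative value means that the Bdh2 array was lower than the other 3 groups would add up to. The test rests on the lone Bdh2 array and was passed by 8.13% of all probe sets. Most genes here were named for their distance in that array, which also enters the test. Adjusted p among these 77 genes was between 2.76e-06 and 0.0442, and standard errors between 0.0943 and 0.226.

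Red blood cell genes were lower than the sum of the other groups in hbbe2, where the value was -1.89 ± 0.10, and in slc4a1a (-1.66), alas2 (-1.04), hbbe3 (-0.88), cahz (-0.71), epb41b (-0.68), hbae3 (-0.62), sptb (-0.56) and tmod4 (-0.41). The tropomodulin gene tmod4, a member of the erythroid list, was at -0.41 and the ferritin gene fthl28 at -0.80. Against the same controls the Atg7 arrays stood at -1.62 for slc4a1a, -1.42 for hbbe3 and -1.45 for alas2, beside -1.84, -0.95 and -1.49 in the Bdh2 array.

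The retinal and neuronal transcription factor genes were lower by -2.10 ± 0.14 for crx, -1.62 ± 0.15 for vsx1, -1.41 for atoh7, -1.23 for lhx1a and -1.07 for nr2e3. Other neuronal genes were gng13b (-1.02), kif5aa (-0.98), stmn1b (-0.78) and snap25b (-0.73). In dual minus Atg7 crx was at -0.32, vsx1 at 0.024, atoh7 at 0.30 and lhx1a at 0.11.

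Among matrix and muscle genes, and2 was at -2.13 ± 0.12, atp2a1l at -1.75 ± 0.12, and and3 (-1.16), and1 (-1.05), pvalb3 (-1.04), ldb3a (-1.03), col10a1a (-0.89) and pvalb5 (-0.82) followed. Higher than the sum were tnni2b.1 (0.78), tnnt2c (1.01) and col14a1a (1.1). In metabolism the values were negative for pygl (-2.11), pfkma (-1.0), cox4i1l (-0.73) and pklr (-0.50). In pygl the Bdh2 difference was -1.50 and that of dual minus Atg7 0.62, in opposite directions.

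Hormone, vitamin A and glucocorticoid genes were cyp11a1.1 at 2.29 ± 0.17, cyp26a1 (1.04) and dhrs3a (0.95) above the sum, and rbp2a (-1.32), hsd11b2 (-1.20), star (-0.97) and fkbp5 (-0.80) below it. Among immune genes fosab was at 2.43 ± 0.18, with mmp9 (1.95), junba (1.80), mmp13a (1.17), ier2a (0.70) and nfkb2 (0.51) above the sum and mpx (-1.07) and lyz (-1.05) below it. For fosab and junba the Bdh2 array was above the controls (1.91 and 0.77) and the dual arrays below the Atg7 arrays (-0.52 and -1.03). In fosab the Atg7 arrays were above the controls as well, by 1.71. mmp9 and mmp13a were lower in both contrasts, by more in dual minus Atg7.

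Stress genes were hsp70.3 (-1.20), hspb6 (-0.72), chac1 (-0.36), hspb1 (1.05), hspa8b (0.66) and gadd45ba (0.56), and antioxidant genes cat (-0.76), sod2 (-0.75) and gstt1a (-0.49). hsp70.3 was higher in both contrasts, by more in dual minus Atg7. The hypoxia genes ndrg1b and egln3 were at -1.14 and 1.27. Lysosomal and autophagy genes were ctsc (1.67), ctss2.1 (1.24), ctsba (1.18), ctsll (0.82) and nbr1a (-0.46).

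Skin genes were zgc:111983 (1.61), krt17 (1.42), tgm1l4 (0.72) and capn9 (0.54), all above the sum. The proliferation genes were gmnn (0.52) and lig1 (0.43). The remaining genes were uox (2.11), hoxb1a (1.09), aacs (0.67), si:ch1073-340i21.3 (0.49), itih3a.1 (-0.70) and ndrg4 (-0.68). aacs and si:ch1073-340i21.3 were lower in both contrasts, by more in dual minus Atg7. uox was higher in the Bdh2 array (1.55) and lower in dual minus Atg7 (-0.56).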

How the results depend on the processing

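With 1 Bdh2 array nothing here shows how Bdh2 embryos vary, and the sensitivity of the arrays near background limits what the low values mean. The count of 366 probe sets at least 2-fold outside the control range became 234 (90 higher and 144 lower) without dim probe sets and 125 (50 and 75) at 1.5 log2, both by their construction. It was 374 with quantile normalization and 306 measured from the nearest control array, and 361 to 380 without 1 control array. The limma count of 4376 ranged from 3610 to 4488 without 1 array, was 3394 with the replicate block, 4786 with a trended prior and 4517 with control and Bdh2 arrays only. Dual minus Atg7, at 5115, ranged from 4056 to 5145 without 1 array and was 4541 with the replicate block. The difference between contrasts, at 1261, was 708 with the replicate block and 859 to 1231 without 1 array. Centring on medians and quantile normalization each turned its split, from more probe sets higher to more lower. Both turned the split of dual minus Atg7 the other way. Quantile normalization and, narrowly, the filter on dim probe sets turned that of Bdh2 minus control from more higher to more lower. The side with more calls thus depends on the scaling. Bdh2 and control arrays share 1 replicate number. Among control, Atg7 and dual arrays, deviations from the group mean were correlated between groups. Same-numbered arrays had r between -0.37 and 0.20, and differently numbered arrays had r between -0.28 and 0.37. These ranges overlap, and deviations from the mean of so few arrays are tied to each other. The check therefore cannot decide whether the numbers pair the arrays. Of 2354 values of the 160 named genes under alternatives, 2324 kept direction and call, 24 lost the call and 6 gained it, and 0 turned direction. Most of these genes were named for their distance in the Bdh2 array. Leaving out an Atg7 or dual array does not alter their difference from the controls. A kept direction was thus largely fixed in advance. The cause of the changes in counts and calls was not tested.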

Other observations

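Of the AFFX control probe sets, which no comparison used, 2 lay at least 2-fold outside the control range. AFFX-Dr-acta1-5_at read 11.49, 11.48 and 11.34 in control arrays and 10.16 in the Bdh2 array, with the Atg7 arrays at 10.75, 10.99 and 10.95 and the dual arrays at 10.70, 10.78 and 10.76. AFFX-Dr-U43284-1_s_at, whose target is not given in the sources used here, read 9.30, 9.22 and 9.34 in control arrays, 8.93, 9.02 and 8.95 in Atg7 arrays, and 6.57, 6.18 and 6.25 in the 3 dual arrays. The Bdh2 array read 6.52. All 4 arrays with the Bdh2 morpholino were thus below the 6 arrays without it.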
